A study of Homo sapiens with 12 samples.

Results

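F-box proteins are the substrate receptors of SCF ubiquitin ligases, and their transcripts were followed in 2 human cancer cell lines after knockdown of the histone demethylase KDM3A. The family was taken as every gene whose array annotation begins FBXO, FBXL or FBXW followed by a number, together with BTRC, SKP2 and CCNF, whose names do not carry the prefix. This gave 63 of the 19777 genes that had a probe set of their own on the array, after 2 antisense or divergent transcripts were left out. Each gene was read from the probe set of highest mean signal over all arrays, and 54 of the 63 passed the filter on low signal that left 14061 genes for testing.

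The study used 12 Affymetrix U133 Plus 2.0 arrays, which measure transcripts by the brightness of short probes. A549 is a lung adenocarcinoma line and SW780 a bladder carcinoma line, each grown in its own medium, so line and medium cannot be told apart. Cells received siKDM3A, a small interfering RNA against KDM3A, which removes methyl groups from lysine 9 of histone H3, or a control siRNA named for a reporter gene, siEGFP or siFFluc, all at 100 nM for 24 h with a lipid reagent. The 6 groups were SW780 siKDM3A, SW780 siEGFP, SW780 siFFluc, A549 siKDM3A, A549 siEGFP and A549 siFFluc, with 2 arrays in each. The labels do not say whether the 2 arrays of a group came from separate transfections, so p-values reflect only the scatter of these arrays and that scatter may be technical. No untransfected cells were among the groups, and every group carried a siRNA duplex. The only treatment against KDM3A was siKDM3A, so loss of KDM3A and other effects of that siRNA cannot be told apart.

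An SCF ligase is built on the scaffold CUL1, which holds the RING protein RBX1 and, at its far end, the adaptor SKP1. SKP1 binds the F-box of a receptor, and the rest of the receptor picks the protein to be marked with ubiquitin, often through a phosphate on the substrate. The FBXW class reads substrates through WD40 repeats, the FBXL class through leucine-rich repeats, and the FBXO class holds receptors with other domains, among them cyclin F. In dividing cells these receptors time the loss of cyclins, cyclin-dependent kinase inhibitors and signalling proteins such as beta-catenin.

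Signals are MAS5 values on a linear scale, and changes are limma estimates ± SE on the log2(signal + 16) scale, with adjusted p-values after Benjamini and Hochberg over the 14061 genes. A knockdown change is siKDM3A minus the average of both control siRNA groups of the line, and a gene is said to have risen or fallen where its adjusted p was under 0.05. The targeted transcript KDM3A had signals of 692.5 and 712 in A549 siKDM3A arrays, against 1299.7 and 1307 under siEGFP and 1519 and 1437 under siFFluc (-0.97 ± 0.10, adjusted p = 8.34e-05). In SW780 it had 197 and 223 under siKDM3A, against 409.8 and 373 under siEGFP and 359 and 433 under siFFluc (-0.86 ± 0.10, adjusted p = 2.74e-04). Arrays of siKDM3A lay below all control arrays in both lines. In bulk RNA, less transcript per cell and fewer cells that hold it cannot be told apart. The 2 arrays of a group had a Pearson r across genes between 0.982 and 0.989, genes not being independent replicates. The log2 values of the SW780 siFFluc pair differed most, by an SD of 0.483, where the remaining pairs gave 0.359 to 0.437. All 5 epithelial markers passed the filter in these lines, and 9 of 10 urothelial markers did, with a summed signal of 30203 to 38065 in SW780 and 4346 to 5047 in A549. Of 7 lung markers 4 passed, with a summed signal of 709 to 1029 in SW780 and 353 to 506 in A549. LAMP3 made up much of the SW780 sum, with 402.7 to 738.9 there and 67.7 to 127.2 in A549. In the control arrays 2 of the 4 markers were higher in SW780 and 2 were lower. The defining lung factor NKX2-1 did not pass, with 2.5 to 26.0 in A549 and 10.4 to 93.8 in SW780. Fibroblast markers summed to 469 to 899 in SW780 and 874 to 1260 in A549 with 3 of 6 past the filter, and leukocyte markers to 59.9 to 109.9 in SW780 and 85.0 to 178 in A549 with 2 of 4. Under siKDM3A the epithelial markers KRT8 (-0.34 ± 0.09, adjusted p = 0.0344) and CDH1 (-0.26 ± 0.07, adjusted p = 0.0421) and the urothelial marker UPK1B (-0.26 ± 0.07, adjusted p = 0.0238) fell in SW780. Of 4 lung markers tested 1 fell in each line, SFTPC in SW780 (-1.08 ± 0.31, adjusted p = 0.0419) and SFTPB in A549 (-0.78 ± 0.17, adjusted p = 0.0127), while SFTPB in SW780 gave 0.30 ± 0.17, adjusted p = 0.320. SFTPB in A549 missed the threshold against siFFluc alone (adjusted p = 0.0569). Against siEGFP alone CDH1 (adjusted p = 0.708), KRT8 (adjusted p = 0.451), UPK1B (adjusted p = 0.160) and SFTPC (adjusted p = 0.169) did not pass in SW780, where 3 of 5 epithelial markers were lower under siEGFP than under siFFluc. Their part in the results on F-box genes was not tested.

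The members spanned a wide range of signal. The lowest mean among those tested was 40.7, for FBXO2, and the highest below the filter was 32.7, for FBXO24. All 9 members below the filter, which were FBXL8, FBXL13, FBXL22, FBXO24, FBXO39, FBXO40 and the pseudogenes FBXL9P, FBXL21P and FBXW4P1, had signals of 1.5 to 71.3 on the 12 arrays, and their changes were not tested. By class, 10 of 11 FBXW genes passed, BTRC included, 13 of 18 FBXL genes, SKP2 included, and 31 of 34 FBXO genes, CCNF included. The filter used the mean over all arrays, so a gene high in 1 line alone could pass it.

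**Figure D1:**
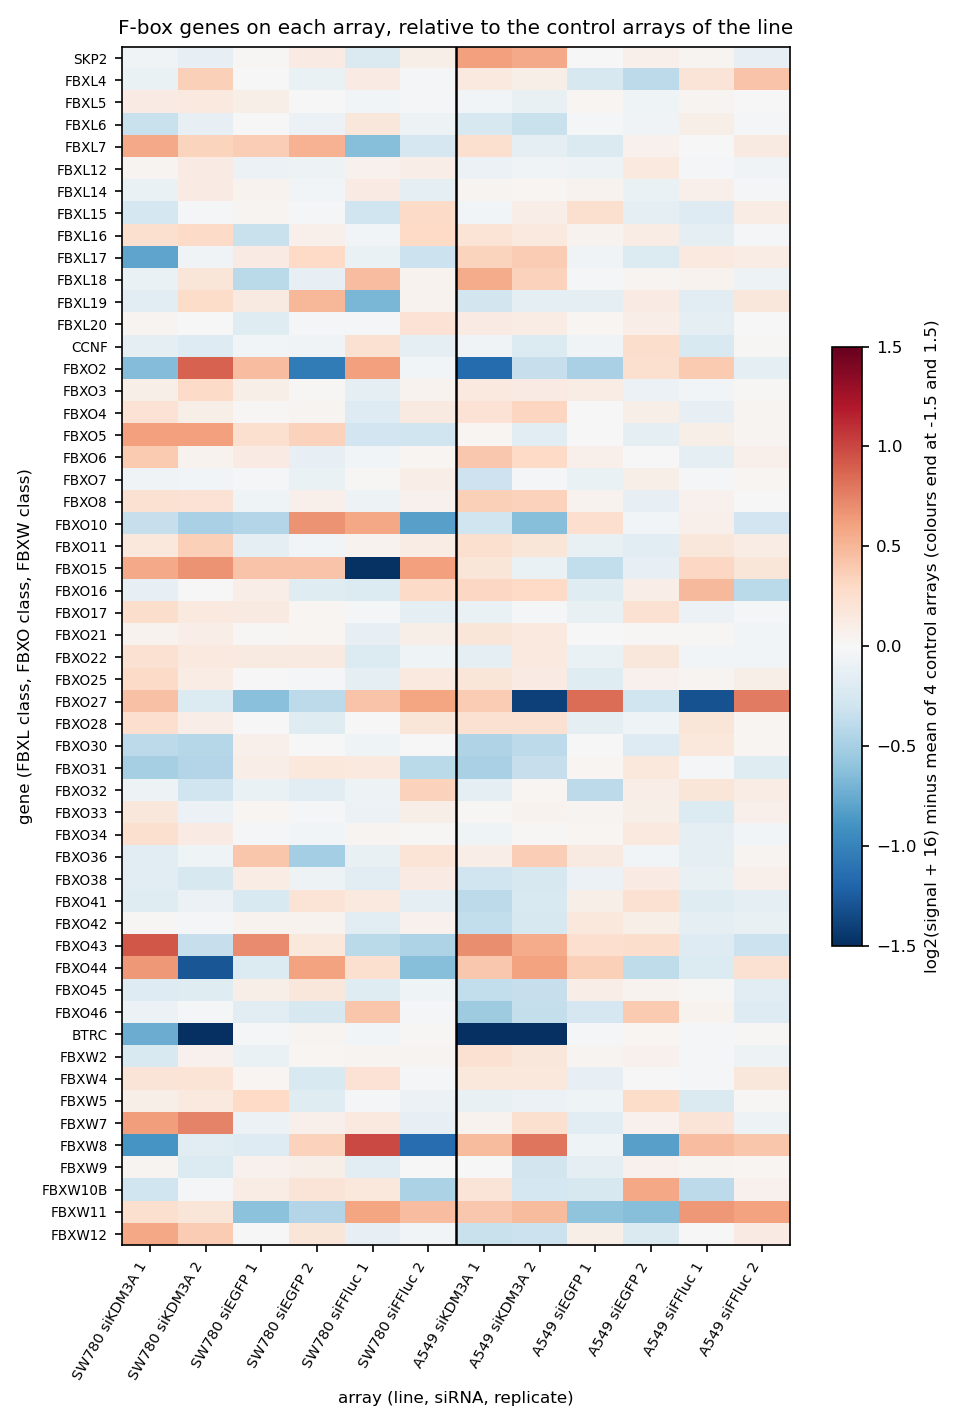
Heat map of the 54 tested F-box genes (rows, grouped by class) on the 12 arrays (columns), as log2(signal + 16) minus the mean of the 4 control arrays of the line. BTRC is the darkest blue row under siKDM3A in both lines, SKP2 is red under siKDM3A in A549, FBXO5 and FBXW7 are red under siKDM3A in SW780, and FBXW11 separates siEGFP from siFFluc in both lines.

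The first question was how many receptors moved under siKDM3A. In A549, 3 F-box genes rose and 3 fell, which is 11.1% of the 54 tested, against 11.7% of all genes tested, of which 5.33% rose and 6.35% fell. SKP2, FBXW11 and FBXO8 rose, and BTRC, FBXO30 and FBXO45 fell. The median change of the family was 0.03, and that of all genes was -0.02. Arrays of siKDM3A lay above all 4 control arrays for 17 members and below them for 11, which is 31.5% and 20.4% of the family, against 17.0% and 19.9% of all genes. Changes of the 48 members that did not pass ran from -0.75 to 0.64. Of all 54, the 6 called included, 18 had an unadjusted p under 0.05. Scaling the arrays to equal medians moved the median change of all genes in A549 to 0.12 and the family's calls to 11 rises and 2 falls, with 15.7% of all genes called higher and 2.92% lower. Quantile normalization gave 6 rises and 3 falls, with 6.14% and 5.95% of all genes. Fitting each line apart gave 10 rises and 4 falls, with 8.96% and 9.64% of all genes. Without A549 siKDM3A replicate 1 the count was 3, with 4.22% of all genes called. It was 12 without SW780 siFFluc replicate 1 and 11 without SW780 siFFluc replicate 2, with 16.9% of all genes called each time.

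In SW780, 4 F-box genes rose and 2 fell, again 11.1% of 54, against 11.8% of all genes tested, of which 5.68% rose and 6.15% fell. FBXW7, FBXO5, FBXW12 and FBXO11 rose, and BTRC and FBXO30 fell. The family's median change was 0.05, and that of all genes was 0.03. Arrays of siKDM3A lay above all control arrays for 10 members and below them for 5, or 18.5% and 9.26%, against 15.3% and 13.3% of all genes. The 48 others ran from -0.52 to 0.63, and 14 of all 54 had an unadjusted p under 0.05. After scaling to equal medians the median change of all genes was -0.07 and the split 2 rises and 4 falls, with 2.01% of all genes called higher and 8.88% lower.

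BTRC and FBXO30 were the 2 members that passed in both lines, each lower, which is 33.3% of the 6 calls in A549 and 33.3% of the 6 in SW780. Among all genes 574 passed in both lines, of 1642 called in A549 and 1663 called in SW780. Taken over all genes tested instead, 4.08% passed in both lines and 2.28% were lower in both. With the lines averaged, 8 members rose and 5 fell, or 24.1%, against 18.2% of all genes, of which 8.86% rose and 9.36% fell, at a family median of 0.06 and a median of 0.00 over all genes. The rises were those of FBXW7, FBXW11, SKP2, FBXO5, FBXO6, FBXO8, FBXO11 and FBXO28, and the falls those of BTRC, FBXO30, FBXO31, FBXO38 and FBXO45. FBXW11 passed in the opposite direction with siFFluc as the only control (-0.25, adjusted p = 0.00983). Without A549 siKDM3A replicate 1 the count of 13 was 7, with 10.8% of all genes called. The response differed between lines for 3 members, or 5.56%, against 2.75% of all genes. FBXO5 and FBXW12 changed more upward in SW780, as 1.78% of all genes did, and SKP2 in A549, as 0.974% did. The count of 3 was 7 after scaling to equal medians, with 13.8% of all genes called, 1 with siEGFP as the only control, with 0.548%, and 0 without the trend in the prior variance, with 0.597%. It was 1 without A549 siKDM3A replicate 1, with 0.455% of all genes called, and 0 without A549 siKDM3A replicate 2, with 0.292%.

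**Figure D2:**
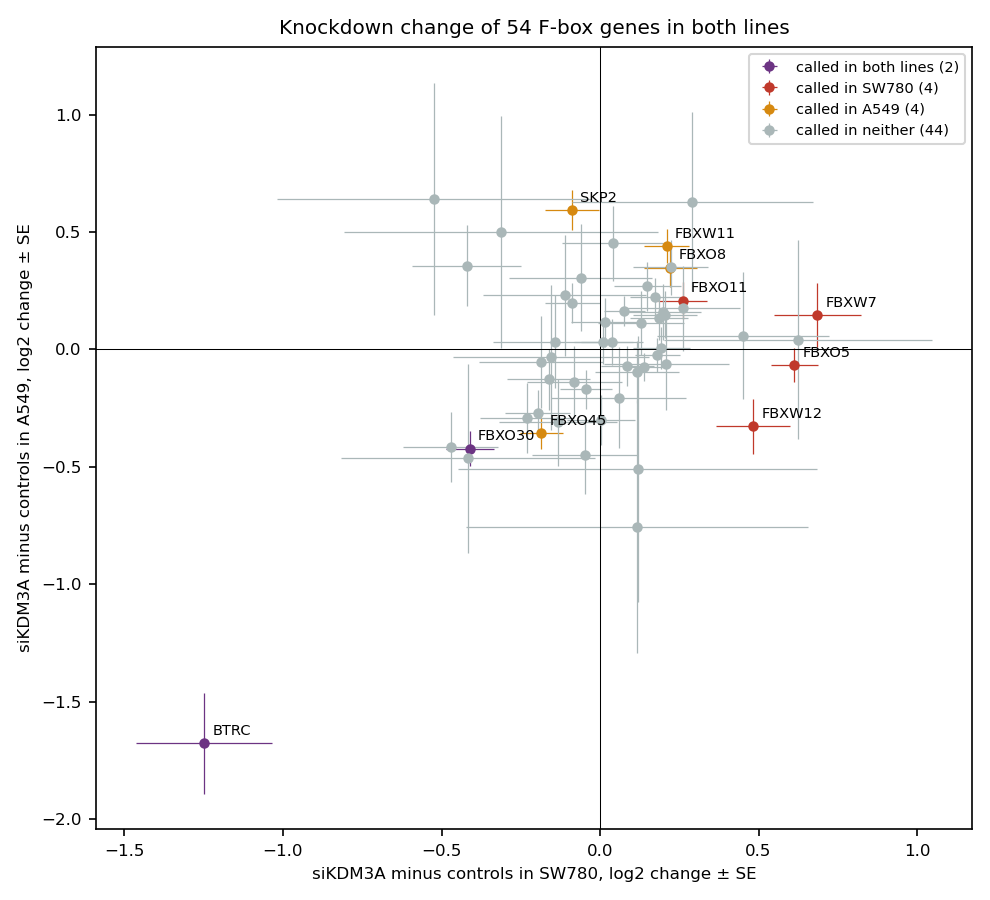
Change under siKDM3A of the 54 tested F-box genes in SW780 (horizontal axis) and A549 (vertical axis), log2 change ± SE, with colours for the lines in which a gene passed an adjusted p of 0.05. BTRC lies far to the lower left at -1.25 in SW780 and -1.68 in A549, while SKP2 lies near 0 in SW780 and FBXO5 near 0 in A549.

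The FBXW class was described first. BTRC encodes beta-TrCP1, the receptor for beta-catenin and the NF-kappaB inhibitor IkappaB once these are phosphorylated. In A549 its signals were 125 and 122 under siKDM3A, against 424 and 438 under siEGFP and 421 and 433 under siFFluc (-1.68 ± 0.21, adjusted p = 3.25e-04). The SW780 signals were 189 and 85.6 under siKDM3A, against 322 and 336.5 under siEGFP and 318 and 332 under siFFluc (-1.25 ± 0.21, adjusted p = 0.00258). Every siKDM3A array lay below every control array of its line, the 4 controls of a line lay within a narrow band, and the 2 SW780 siKDM3A arrays differed from each other by more than the controls did. The siKDM3A mean was 28.7% of the control mean in A549 and 42.0% in SW780. The fall was past the threshold against siEGFP alone and against siFFluc alone in both lines. With the lines averaged it was -1.46 ± 0.15, adjusted p = 3.20e-05, and the size of the fall did not pass the test of a difference between lines (0.43 ± 0.30, adjusted p = 0.498).

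The fall of BTRC rested on 1 of its 3 probe sets above the filter, 224471_s_at. Probe set 216091_s_at gave 0.04 ± 0.18, adjusted p = 0.930 in A549 and -0.55 ± 0.18, adjusted p = 0.0734 in SW780. Probe set 204901_at gave -0.22 ± 0.21, adjusted p = 0.617 in A549 and -0.17 ± 0.21, adjusted p = 0.701 in SW780. Neither passed in either line, and the mean of the 3 probe sets gave -0.62 in A549 (adjusted p = 0.0126) and -0.66 in SW780 (adjusted p = 0.00852). Which BTRC transcripts each probe set reads was not analysed here.

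FBXW11 encodes beta-TrCP2, the close paralogue of BTRC that recognises the same kind of phosphorylated site. Its signals in A549 were 1907 and 1991 under siKDM3A, against 933 and 910.2 under siEGFP and 2258 and 2180.3 under siFFluc. SW780 arrays gave 1902.5 and 1820.2 under siKDM3A, against 1047 and 1177 under siEGFP and 2422 and 2227 under siFFluc. Arrays of siKDM3A lay between the control siRNAs in both lines, above both siEGFP arrays and below both siFFluc arrays. Against the average of the controls FBXW11 rose in A549 (0.44 ± 0.07, adjusted p = 0.00168) and not past the threshold in SW780 (0.21 ± 0.07, adjusted p = 0.0805). The direction turned with the control. In A549 it was 1.07 ± 0.08, adjusted p = 7.47e-06 against siEGFP alone and -0.19 ± 0.08, adjusted p = 0.195 against siFFluc alone. In SW780 it was 0.74 ± 0.08, adjusted p = 2.64e-04 against siEGFP alone and -0.32 ± 0.08, adjusted p = 0.0230 against siFFluc alone.

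FBXW7 encodes the receptor for cyclin E, MYC, JUN and NOTCH1 and is a known tumour suppressor. In SW780 its signals were 664 and 720.3 under siKDM3A, against 398 and 446 under siEGFP and 469.5 and 387.5 under siFFluc (0.69 ± 0.14, adjusted p = 0.00638). In A549 they were 304 and 349.5 under siKDM3A, against 258 and 308 under siEGFP and 336 and 276 under siFFluc (0.15 ± 0.14, adjusted p = 0.564). Both SW780 siKDM3A arrays lay above all controls of that line, while the A549 groups overlapped. All 3 FBXW7 probe sets above the filter rose in SW780, 218751_s_at by 0.59 ± 0.13, adjusted p = 0.0138 and 222729_at by 0.64 ± 0.14, adjusted p = 0.0158. The rise held against siEGFP alone (0.69 ± 0.16, adjusted p = 0.0218) and siFFluc alone (0.68 ± 0.16, adjusted p = 0.0125). Without SW780 siKDM3A replicate 2 it was 0.63 with an adjusted p of 0.0742, and the lines did not differ past the threshold (0.54 ± 0.19, adjusted p = 0.161). With the lines averaged FBXW7 rose (0.42 ± 0.10, adjusted p = 0.00960), which without A549 siKDM3A replicate 2 had an adjusted p of 0.0601.

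FBXW12 was read from 1 probe set above the filter, 215600_x_at, and the suffix x marks probes that can bind other transcripts, so its values are uncertain. In SW780 its signals were 879 and 762 under siKDM3A, against 576 and 660.0 under siEGFP and 531 and 565 under siFFluc (0.48 ± 0.12, adjusted p = 0.0176). In A549 they were 377 and 381 under siKDM3A, against 512 and 409.6 under siEGFP and 482 and 523 under siFFluc (-0.33 ± 0.12, adjusted p = 0.0893). Arrays of siKDM3A lay above all controls in SW780 and below all controls in A549, and the difference between lines was 0.81 ± 0.16, adjusted p = 0.0275. The SW780 call ended against siEGFP alone (adjusted p = 0.103), without SW780 siKDM3A replicate 1 (adjusted p = 0.182), without SW780 siEGFP replicate 1 (adjusted p = 0.0582) and after scaling to equal medians (adjusted p = 0.0536). The difference between lines ended in 11 of 24 alternatives, 8 of which left out 1 array, with adjusted p-values up to 0.129.

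**Figure D3:**
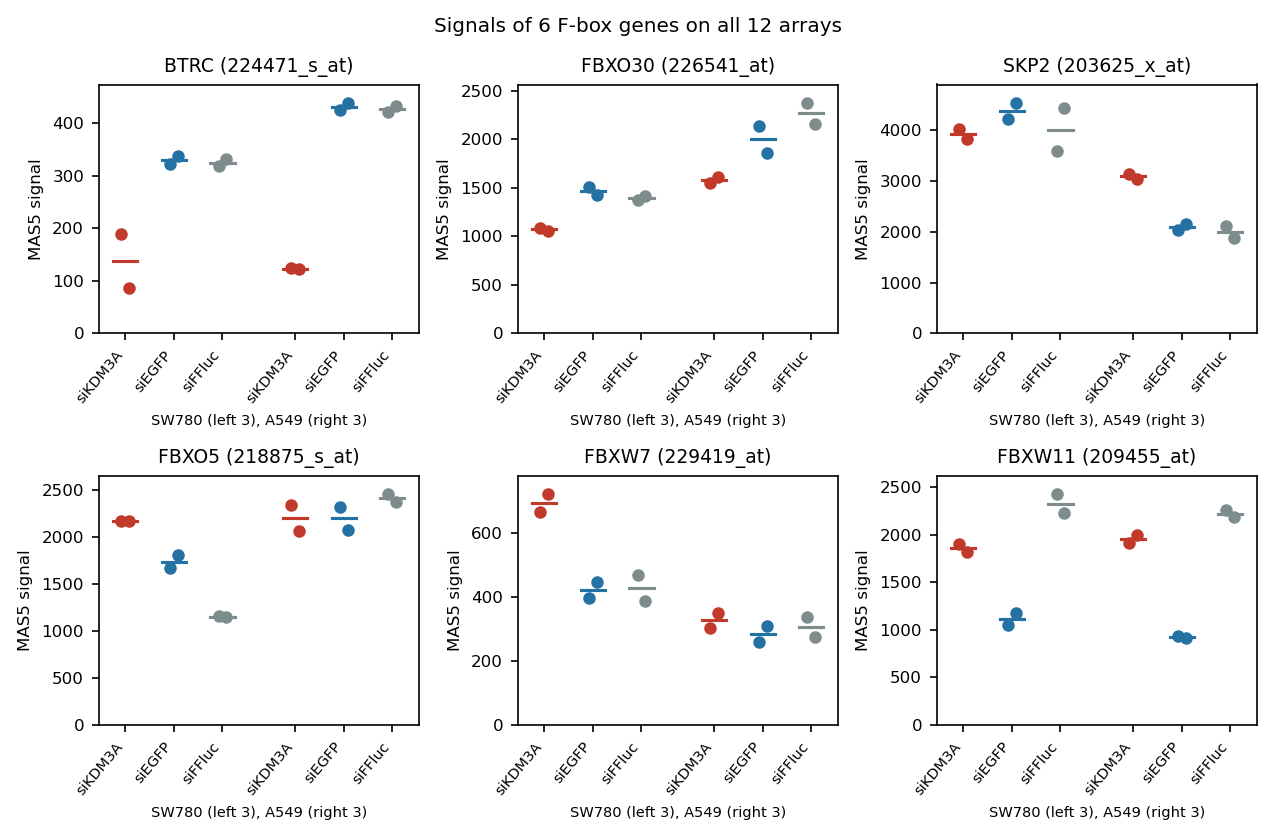
MAS5 signals (vertical axes from 0) of BTRC, FBXO30, SKP2, FBXO5, FBXW7 and FBXW11 on each of the 12 arrays, with points for arrays and bars for means of 2 arrays, siKDM3A left of siEGFP and siFFluc within each line and SW780 left of A549. BTRC and FBXO30 are below all controls under siKDM3A in both lines, and FBXW11 under siKDM3A lies between its control siRNAs.

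In the FBXL class 1 of 13 tested members passed in A549 and 0 in SW780 by limma, where 2 were under an unadjusted p of 0.05, against 11.7% and 11.8% of all genes called in these lines. The member that passed was SKP2, the receptor that marks the cyclin-dependent kinase inhibitor p27 for destruction and so opens the way to S phase. In A549 its signals were 3136 and 3041 under siKDM3A, against 2043 and 2156 under siEGFP and 2104 and 1872 under siFFluc (0.59 ± 0.08, adjusted p = 6.29e-04). SW780 signals came to 4031 and 3821 under siKDM3A, against 4215 and 4535.5 under siEGFP and 3584 and 4429 under siFFluc (-0.09 ± 0.08, adjusted p = 0.567). The A549 siKDM3A arrays stood clear of all controls, at 151% of the control mean, and the SW780 groups overlapped. The rise in A549 held against siEGFP alone (0.55 ± 0.10, adjusted p = 0.00369) and siFFluc alone (0.63 ± 0.10, adjusted p = 0.00123). The probe set used, 203625_x_at, can bind other transcripts, and of the other SKP2 probe sets 210567_s_at rose in A549 (0.47 ± 0.12, adjusted p = 0.0243) and 203626_s_at did not pass (0.40 ± 0.14, adjusted p = 0.0986).

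With the lines averaged SKP2 rose (0.25 ± 0.06, adjusted p = 0.0108), a call that ended in 5 of 24 alternatives, with adjusted p-values up to 0.0794. It ended without A549 siKDM3A replicate 1 (adjusted p = 0.0574) and without SW780 siKDM3A replicate 1 (adjusted p = 0.0547). The averaged call also ended against siEGFP alone, with the mean of all probe sets and without the variance trend. The change of SKP2 differed between lines (-0.68 ± 0.12, adjusted p = 0.0148). This difference missed the threshold without A549 siKDM3A replicate 1 (adjusted p = 0.0799), without A549 siKDM3A replicate 2 (adjusted p = 0.0764), without SW780 siKDM3A replicate 2 (adjusted p = 0.0802), with the mean of all probe sets (adjusted p = 0.0596) and without the variance trend (adjusted p = 0.0940). The SKP2 promoter is shown as the start of a receptor gene whose response differed between lines. Capitals mark GC boxes, searched as GGGCGG on both strands.
SKP2, plus strand, chr5:36151861-36152160: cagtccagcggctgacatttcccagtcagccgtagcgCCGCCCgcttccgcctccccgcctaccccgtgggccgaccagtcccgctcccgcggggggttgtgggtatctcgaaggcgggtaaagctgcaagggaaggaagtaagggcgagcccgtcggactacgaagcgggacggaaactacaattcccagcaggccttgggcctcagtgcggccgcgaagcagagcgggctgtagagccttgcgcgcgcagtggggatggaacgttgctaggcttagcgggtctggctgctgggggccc
It is RefSeq sequence of GRCh38.p14, from 250 bases before to 50 bases after the annotated start, and it held 1 GC box. RefSeq windows were found for 46 of the 63 members, 65 windows in all, and 72.3% of these held a GC box, against 45.0% of 35116 promoter windows of all genes.

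A pair of family members act on or with the cell-cycle machinery from the FBXO class. FBXO5, also called EMI1, is itself an inhibitor of the APC/C, the other large cell-cycle ubiquitin ligase, and CCNF encodes cyclin F, the receptor for the ribonucleotide reductase subunit RRM2 and the centriole protein CCP110. In SW780 the FBXO5 signals were 2173 and 2177 under siKDM3A, against 1674 and 1805.5 under siEGFP and 1160.5 and 1149 under siFFluc (0.61 ± 0.07, adjusted p = 2.74e-04). In A549 they were 2344 and 2066 under siKDM3A, against 2321 and 2082 under siEGFP and 2456 and 2376 under siFFluc (-0.07 ± 0.07, adjusted p = 0.646). In SW780 the 3 siRNAs fell into 3 separate steps, siKDM3A highest and siFFluc lowest, and in A549 siKDM3A overlapped the controls. The SW780 rise was 0.32 ± 0.09, adjusted p = 0.0437 against siEGFP alone and 0.90 ± 0.09, adjusted p = 4.46e-05 against siFFluc alone. Both FBXO5 probe sets above the filter rose in SW780, the other, 234863_x_at, by 0.45 ± 0.12, adjusted p = 0.0335.

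FBXO5 responded differently in the lines (0.68 ± 0.10, adjusted p = 0.00731). Against siEGFP alone the difference was 0.32 (adjusted p = 0.249), and without A549 siKDM3A replicate 2 it was 0.59 (adjusted p = 0.0629). With the lines averaged FBXO5 rose (0.27 ± 0.05, adjusted p = 0.00302), and against siEGFP alone that average was 0.16 (adjusted p = 0.103). The A549 estimate on its own was below 0.

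CCNF did not pass in either line. Its signals in SW780 were 476 and 459 under siKDM3A, against 510.2 and 505 under siEGFP and 618.5 and 476 under siFFluc (-0.16 ± 0.13, adjusted p = 0.480). In A549 they were 640.0 and 575 under siKDM3A, against 637.5 and 799.7 under siEGFP and 566 and 674 under siFFluc (-0.13 ± 0.13, adjusted p = 0.607). The SW780 siKDM3A arrays lay below all controls by less than the spread between those controls, and the A549 groups overlapped.

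The promoters of FBXO5 and CCNF are shown because both genes are known to be transcribed in step with the cell cycle, yet of the pair FBXO5 passed the knockdown test in SW780 and CCNF did not. Capitals mark the CCAAT box, the element CHR searched as TTTGAA, and the GC box searched as GGGCGG, each on both strands. FBXO5 has 2 annotated starts.
FBXO5 start 1, minus strand, chr6:152983530-152983829: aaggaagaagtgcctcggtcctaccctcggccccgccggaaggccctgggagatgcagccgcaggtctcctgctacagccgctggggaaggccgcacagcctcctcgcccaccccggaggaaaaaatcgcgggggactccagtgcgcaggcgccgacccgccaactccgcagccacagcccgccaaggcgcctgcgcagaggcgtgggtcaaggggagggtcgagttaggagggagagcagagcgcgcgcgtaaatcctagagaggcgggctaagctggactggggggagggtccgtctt
FBXO5 start 2, minus strand, chr6:152982992-152983291: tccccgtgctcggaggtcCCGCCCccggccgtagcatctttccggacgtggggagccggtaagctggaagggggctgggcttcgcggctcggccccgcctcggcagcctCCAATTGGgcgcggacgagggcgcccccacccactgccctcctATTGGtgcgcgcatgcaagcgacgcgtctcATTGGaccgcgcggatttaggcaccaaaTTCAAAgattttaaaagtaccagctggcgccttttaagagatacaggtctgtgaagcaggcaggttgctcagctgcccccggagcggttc
CCNF, plus strand, chr16:2429197-2429496: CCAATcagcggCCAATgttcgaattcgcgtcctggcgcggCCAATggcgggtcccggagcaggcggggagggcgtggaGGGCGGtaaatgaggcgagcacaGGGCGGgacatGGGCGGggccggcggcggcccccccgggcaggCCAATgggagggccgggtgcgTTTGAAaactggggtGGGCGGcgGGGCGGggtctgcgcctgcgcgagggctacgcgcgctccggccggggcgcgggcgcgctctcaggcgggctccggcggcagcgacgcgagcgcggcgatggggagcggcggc
The first FBXO5 window held none of the 3 motifs. The second held 4 CCAAT boxes, 2 of which overlap on opposite strands, 1 CHR and 1 GC box. The CCNF window held 4 CCAAT boxes, 1 CHR and 5 GC boxes. Over the 65 windows of the family 29.2% held a CCAAT box and 10.8% a CHR, against 34.6% and 15.2% of all windows, and a match is a description of the letters alone.

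FBXO30, known in mouse muscle as a receptor induced during wasting, fell in both lines. In A549 its signals were 1554 and 1613 under siKDM3A, against 2139 and 1860.4 under siEGFP and 2376 and 2162 under siFFluc (-0.42 ± 0.08, adjusted p = 0.00328). The corresponding SW780 values were 1085 and 1059.9 under siKDM3A, against 1506.5 and 1426.5 under siEGFP and 1372 and 1421 under siFFluc (-0.41 ± 0.08, adjusted p = 0.00411). The siKDM3A arrays lay below all controls in both lines, at 74.2% of the control mean in A549 and 74.9% in SW780, and the fall held against each control siRNA alone. The other FBXO30 probe set, 242007_at, had a mean signal of 43.2 and changes of -0.02 in A549 and 0.02 in SW780, and with the mean of both the falls were -0.22 (adjusted p = 0.303) and -0.20 (adjusted p = 0.354). Without A549 siKDM3A replicate 1 the A549 fall was -0.40 (adjusted p = 0.0570). The FBXO30 promoter is shown as that of a member that fell in both lines, with GC boxes in capitals.
FBXO30, minus strand, chr6:145814746-145815045: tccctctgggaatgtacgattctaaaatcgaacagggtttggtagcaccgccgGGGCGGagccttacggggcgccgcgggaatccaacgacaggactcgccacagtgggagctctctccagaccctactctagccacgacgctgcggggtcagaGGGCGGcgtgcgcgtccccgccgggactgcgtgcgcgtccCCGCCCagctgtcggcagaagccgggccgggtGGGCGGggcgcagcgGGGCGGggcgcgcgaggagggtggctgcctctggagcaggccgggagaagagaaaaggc
It held 5 GC boxes, no CCAAT box and no CHR.

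FBXO45, which works with the RING ligase MYCBP2 in place of CUL1, fell in A549. Its A549 signals were 1427 and 1451 under siKDM3A, against 1977 and 1913 under siEGFP and 1865 and 1654 under siFFluc (-0.36 ± 0.07, adjusted p = 0.00498). The SW780 signals were 2593 and 2609.6 under siKDM3A, against 3139 and 3323 under siEGFP and 2609 and 2818.5 under siFFluc (-0.19 ± 0.07, adjusted p = 0.104). The groups were apart in A549, while in SW780 the lower siFFluc array fell between the siKDM3A arrays. A second probe set, 225100_at, fell in A549 too (-0.41 ± 0.08, adjusted p = 0.00692), and the third, 242294_at, did not pass (-0.64 ± 0.22, adjusted p = 0.0882). The A549 call ended without siKDM3A replicate 1 (adjusted p = 0.0655), without siKDM3A replicate 2 (adjusted p = 0.0552) and after scaling to equal medians (adjusted p = 0.0778). With the lines averaged FBXO45 fell (-0.27 ± 0.05, adjusted p = 0.00189) and passed against each control siRNA alone.

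FBXO8, which carries a Sec7-like domain and acts on the small GTPase ARF6, rose in A549. Its A549 signals were 896 and 889 under siKDM3A, against 725 and 639 under siEGFP and 728 and 702 under siFFluc (0.35 ± 0.08, adjusted p = 0.0171). In SW780 they were 1609.5 and 1593 under siKDM3A, against 1306 and 1442 under siEGFP and 1303 and 1439.7 under siFFluc (0.22 ± 0.08, adjusted p = 0.107). The siKDM3A arrays lay above all controls in both lines, and with the lines averaged FBXO8 rose (0.29 ± 0.06, adjusted p = 0.00473). The A549 call ended against siFFluc alone (adjusted p = 0.0567), with the mean of both probe sets (adjusted p = 0.0907) and without siFFluc replicate 2 (adjusted p = 0.0501), siKDM3A replicate 1 (adjusted p = 0.128) or siKDM3A replicate 2 (adjusted p = 0.121).

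FBXO11 targets the transcription repressor BCL6 and the DTL protein. Its SW780 signals were 1137 and 1313 under siKDM3A, against 925 and 992 under siEGFP and 1058 and 1103 under siFFluc (0.26 ± 0.08, adjusted p = 0.0468). In A549 they were 1671 and 1610.1 under siKDM3A, against 1316 and 1255 under siEGFP and 1591.5 and 1539 under siFFluc (0.21 ± 0.08, adjusted p = 0.106). The siKDM3A arrays lay above all controls in both lines, but in each line siFFluc also lay above siEGFP. The SW780 call lay at the edge of the threshold and ended in 17 of 25 alternatives, 10 of which left out 1 array, with adjusted p-values up to 0.423. When every probe set was tested on its own, the same FBXO11 probe set had an adjusted p of 0.0597 in SW780. The average of the lines (0.23 ± 0.05, adjusted p = 0.0104) had an adjusted p of 0.223 against siFFluc alone, 0.0590 without A549 siKDM3A replicate 1 and 0.0641 without SW780 siKDM3A replicate 2. With the mean of all FBXO11 probe sets above the filter, the adjusted p of that average was 0.232.

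**Figure D4:**
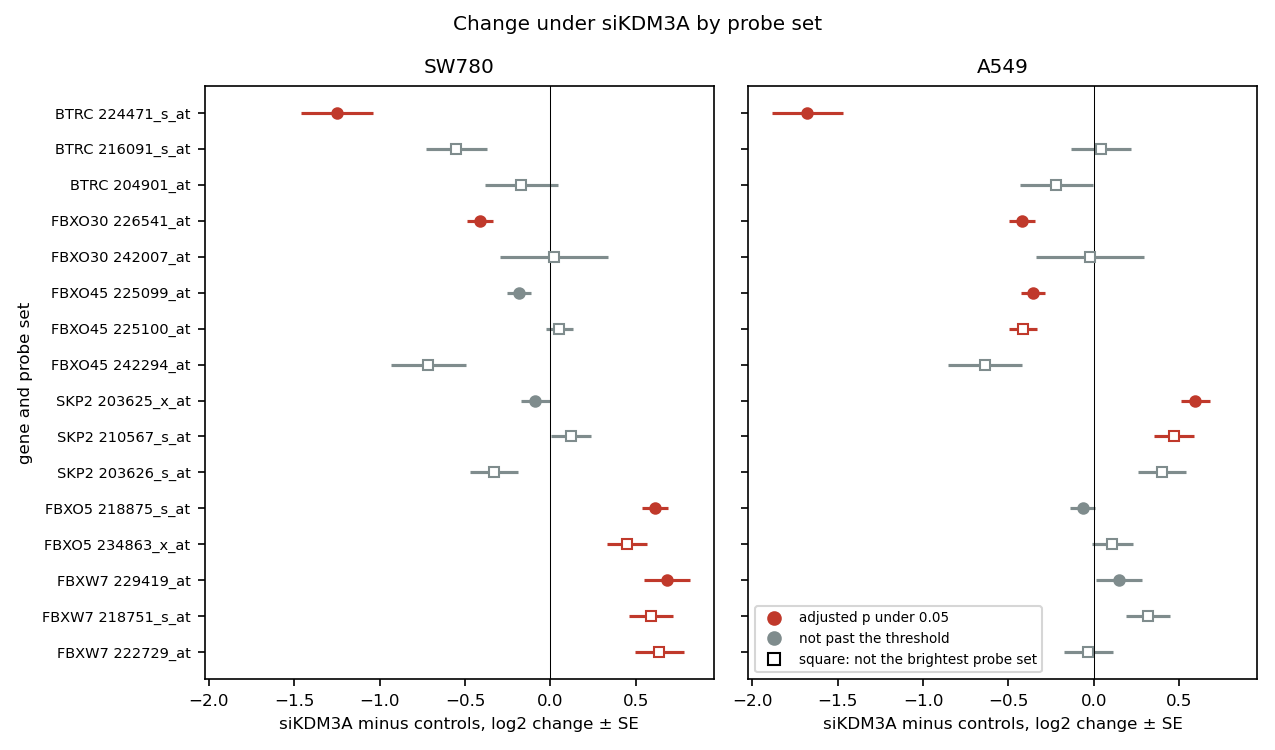
Change under siKDM3A, log2 change ± SE, for each probe set above the filter of BTRC, FBXO30, FBXO45, SKP2, FBXO5 and FBXW7 in SW780 (left panel) and A549 (right panel), with circles for the brightest probe set of a gene, squares for the others and red for an adjusted p under 0.05 over all probe sets. The 3 FBXW7 probe sets agree in SW780 within their errors, while for BTRC the brightest probe set lies apart from the other two in both lines.

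A further group passed only with the lines averaged. FBXO31, which marks cyclin D1 after DNA damage, had signals in SW780 of 250.2 and 262 under siKDM3A, against 387 and 404 under siEGFP and 401.5 and 269 under siFFluc. In A549 it had 301 and 331.5 under siKDM3A, against 438 and 479 under siEGFP and 423 and 375 under siFFluc. The siKDM3A arrays lay below all controls in both lines, and the averaged fall was -0.44 ± 0.11, adjusted p = 0.0112, with single-line values of -0.47 ± 0.15 in SW780 and -0.42 ± 0.15 in A549. The adjusted p of that average was 0.0605 when A549 siKDM3A replicate 1 was left out and 0.0811 with siFFluc as the only control.

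FBXO6, a receptor for proteins that carry N-linked sugars, rose with the lines averaged (0.29 ± 0.08, adjusted p = 0.0316). It had signals in SW780 of 500.2 and 394 under siKDM3A, against 415 and 347 under siEGFP and 367 and 388 under siFFluc. In A549 it had 1243 and 1148 under siKDM3A, against 984 and 933 under siEGFP and 840.2 and 988 under siFFluc. The groups were apart in A549 and overlapped in SW780. Leaving out 1 array ended this call for 6 of the 12 arrays, with adjusted p-values up to 0.160.

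FBXO38, a receptor for the immune checkpoint protein PD-1 in T cells, fell with the lines averaged (-0.23 ± 0.07, adjusted p = 0.0386). Its signals in SW780 were 1408 and 1327 under siKDM3A, against 1699 and 1484 under siEGFP and 1402 and 1715 under siFFluc. In A549 they were 1031 and 1073 under siKDM3A, against 1195.5 and 1389.9 under siEGFP and 1176 and 1346 under siFFluc. The groups overlapped in SW780, and the call ended in 14 of 24 alternatives, 7 of which left out 1 array, with adjusted p-values up to 0.491. The probe set used, 221257_x_at, can bind other transcripts.

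The 5 members of highest mean signal were FBXO21, FBXO22, SKP2, FBXL5 and FBXO28, named for their own signals and not ranked against each other, since different probes are not comparable in level. FBXO28 rose with the lines averaged (0.20 ± 0.06, adjusted p = 0.0271), with SW780 signals of 2799 and 2523 under siKDM3A, against 2347 and 2071 under siEGFP and 2354 and 2680.2 under siFFluc. In A549 it had 3202 and 3195 under siKDM3A, against 2477.5 and 2611 under siEGFP and 3098 and 2794 under siFFluc. The SW780 groups overlapped, and the call ended in 9 of 24 alternatives, 6 of which left out 1 array, with adjusted p-values up to 0.335. FBXL5, the iron-sensing receptor for the iron regulatory protein IREB2, averaged 2862 ± 29.5 under siKDM3A and 2599.5 ± 109.9 under the controls in SW780 (0.14 ± 0.06, adjusted p = 0.167). FBXL5 averaged 2813 ± 101.5 under siKDM3A and 2964 ± 95.1 under the controls in A549 (-0.08 ± 0.06, adjusted p = 0.493; SD, n = 2 and n = 4 arrays). Neither change passed the threshold, although both SW780 siKDM3A arrays lay above all controls.

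FBXO22, a receptor for the histone demethylase KDM4A, averaged 3776 ± 153 under siKDM3A and 3317 ± 383 under the controls in SW780 (0.19 ± 0.09, adjusted p = 0.195). In A549 it averaged 3086 ± 417.5 under siKDM3A and 3071 ± 261 under the controls (0.00 ± 0.09, adjusted p = 0.984). FBXO21, a receptor for the differentiation inhibitor EID1, averaged 3136 ± 59.8 under siKDM3A and 2978.5 ± 183 under the controls in SW780 (0.08 ± 0.06, adjusted p = 0.513). In A549 it averaged 4158.5 ± 69.0 under siKDM3A and 3710.1 ± 64.9 under the controls (0.16 ± 0.06, adjusted p = 0.128). These changes did not pass the threshold either, although the siKDM3A arrays lay above all controls for FBXO21 in A549 and for FBXO22 in SW780.

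The control siRNAs were then set against each other, since a receptor that differs between them has no settled control level. In A549 1 member differed, which is 1.85% of 54 against 2.92% of all genes, and in SW780 2 did, which is 3.70% against 5.57%. Of all genes 1.49% were higher and 1.43% lower under siEGFP in A549, and 2.60% were higher and 2.97% lower in SW780. FBXW11 was lower under siEGFP than under siFFluc in both lines, by the signals given above (-1.25 ± 0.08, adjusted p = 2.65e-06 in A549 and -1.05 ± 0.08, adjusted p = 1.74e-05 in SW780). Of all genes tested, 0.427% were called lower under siEGFP in both lines. Its other probe set, 209456_s_at, was lower under siEGFP as well (-0.80 ± 0.19, adjusted p = 0.0454 in A549 and -0.90 ± 0.19, adjusted p = 0.0203 in SW780). The FBXW11 calls held in all 23 alternatives in each line.

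FBXO5 was higher under siEGFP than under siFFluc in SW780 (0.58 ± 0.09, adjusted p = 0.00254) and not past the threshold in A549 (-0.14 ± 0.09, adjusted p = 0.600). The difference between the lines in this respect was 0.72 ± 0.12 with an adjusted p of 0.0928. By that test 0 members passed by limma, against 0.0213% of all genes, and 4 were under an unadjusted p of 0.05. Against each control siRNA alone, and in the same direction, the knockdown calls that stood in A549 were those of BTRC, FBXO30, FBXO45 and SKP2. In SW780 they were those of BTRC, FBXO30, FBXW7 and FBXO5. Leaving out SW780 siFFluc replicate 2 left a single array in its group. More members then differed between the control siRNAs in SW780, and more of all genes did too. The same held for the difference of the control siRNAs between lines. The A549 count rose as well without either SW780 siFFluc replicate, with more of all genes called. It also rose without either SW780 siKDM3A replicate, with fewer of all genes called.

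In the control arrays the lines themselves differed for most of the family. Of 54 members 16 were higher in SW780 and 23 lower, or 72.2%, against 68.9% of all genes tested, of which 30.1% were higher and 38.8% lower, at a family median of -0.19 and a median of -0.11 over all genes. The split was 16 and 18 after quantile normalization, with 31.5% of all genes called higher and 36.3% lower. After scaling to equal medians it was 18 and 17, with 35.7% of all genes called higher and 31.8% lower. All SW780 control arrays lay above all A549 control arrays for 11 members and below them for 18, or 20.4% and 33.3%, against 25.3% and 33.8% of all genes. The 23 lower members include FBXO17, FBXO10, FBXO43 and FBXL7, which are also among the 18. These reached the filter through their A549 signals, so the filter favoured their direction. FBXO2, among the 23 alone, had SW780 means of 19.1 under siEGFP and 31.4 under siFFluc, both under the filter level of 33.6.

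FBXO17, one of the receptors with a sugar-binding domain, passed the filter through A549 alone. Its signals in SW780 were 6.9 and 5.2 under siEGFP and 4.4 and 3.0 under siFFluc, against 707 and 898 under siEGFP and 716 and 749 under siFFluc in A549. All 4 SW780 control arrays lay under the filter level of 33.6, so the difference has only a bound, at least 22.7-fold lower in SW780 with SW780 signals raised to that level, and the fitted value moved between -7.07 and -3.59 with pseudocounts of 1 and 64. FBXO17 did not pass under siKDM3A, with 9.1 and 7.1 in SW780 siKDM3A arrays and 714 and 748 in A549 siKDM3A arrays.

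FBXO10, a receptor for the apoptosis inhibitor BCL2, had SW780 control signals of 10.7 and 41.8 under siEGFP and 38.0 and 4.6 under siFFluc, against A549 signals of 251 and 202 under siEGFP and 221 and 169 under siFFluc. FBXO43, also called EMI2 and known for holding the APC/C in check in oocytes, had SW780 signals of 27.6 and 13.7 under siEGFP and 4.2 and 3.4 under siFFluc, against A549 signals of 96.6 and 97.1 under siEGFP and 66.7 and 59.8 under siFFluc. FBXL7, a receptor for the mitotic kinase AURKA, had SW780 signals of 38.6 and 44.5 under siEGFP and 11.1 and 19.4 under siFFluc, against A549 signals of 93.3 and 116 under siEGFP and 112 and 123.5 under siFFluc. The SW780 control signals lay under the filter level on 2 of 4 arrays for FBXO10, on 4 for FBXO43 and on 2 for FBXL7, and none overlapped the A549 signals. Mean SW780 control signals were 23.8 for FBXO10, 12.2 for FBXO43 and 28.4 for FBXL7, all under that level. Like FBXO17, these genes reached the filter through their A549 signals, so no p-value is given for their line differences. Reckoned as for FBXO17, SW780 was lower by at least 5.70-fold for FBXO10, 2.33-fold for FBXO43 and 2.96-fold for FBXL7. FBXO6 was lower in SW780 with a clear signal in both lines, averaging 379 ± 29.2 in SW780 and 936 ± 68.7 in A549 (-1.27 ± 0.10, adjusted p = 6.64e-08; SD, n = 4 arrays each).

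Of the members higher in SW780, SKP2 averaged 4191 ± 426 in SW780 controls and 2044 ± 123 in A549 controls (1.03 ± 0.07, adjusted p = 1.83e-08). FBXO8 averaged 1373 ± 78.7 in SW780 and 698 ± 41.1 in A549 (0.96 ± 0.07, adjusted p = 2.94e-08). FBXO45 averaged 2972.5 ± 319.6 in SW780 and 1852 ± 139.8 in A549 (0.67 ± 0.06, adjusted p = 1.50e-07). For these 3 genes no SW780 control array overlapped an A549 one. FBXW10B averaged 119 ± 26.2 in SW780 and 55.1 ± 22.5 in A549 (0.95 ± 0.25, adjusted p = 0.00452), and FBXO16 averaged 305 ± 52.5 in SW780 and 193 ± 56.6 in A549 (0.65 ± 0.18, adjusted p = 0.00698). The FBXO16 call ended with a replicate block (adjusted p = 0.110). Arrays of the lines overlapped for both, and values of FBXW10B are uncertain because the gene has near-identical copies.

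**Figure D5:**
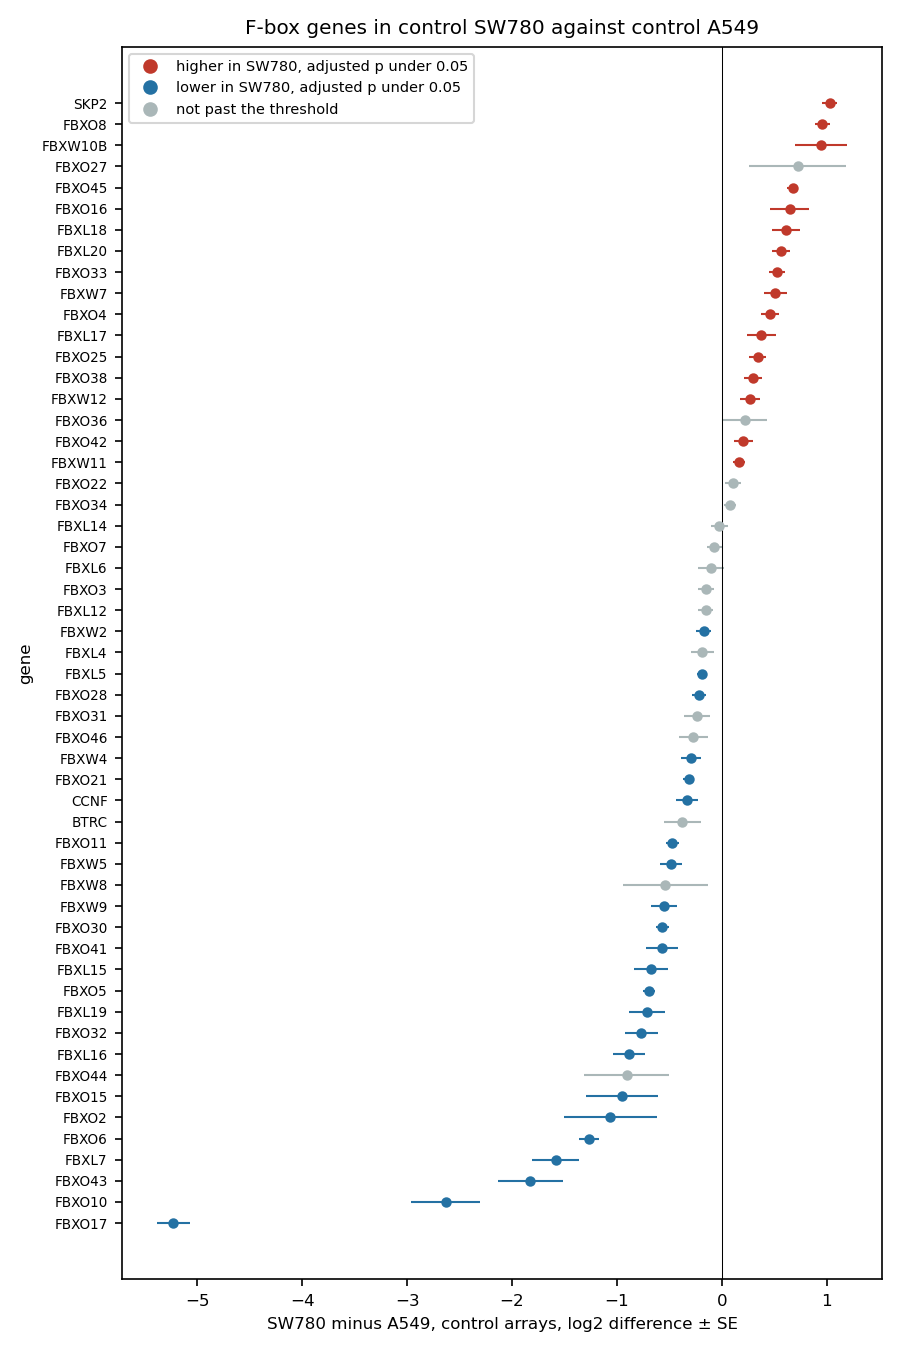
Difference between SW780 and A549 control arrays for the 54 tested F-box genes, sorted, log2 difference ± SE, in red where higher and blue where lower in SW780 at an adjusted p under 0.05. SKP2 is at the top at 1.03, 16 genes are red and 23 blue, and at the bottom FBXO17 is drawn at its fitted value although its SW780 signals lay under the filter level. FBXO2, FBXO10, FBXO43 and FBXL7 are also drawn at fitted values, with mean SW780 control signals under that level.

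The receptors with a domain of the sugar-binding type, FBXO2, FBXO6, FBXO17, FBXO27 and FBXO44, were grouped after their values were seen and are described without a test. FBXO2, FBXO27 and FBXO44 had array signals between 2.3 and 193 across all groups, with overlap between siKDM3A and control arrays in both lines for FBXO2 and FBXO27. FBXO44 overlapped in SW780, while its A549 siKDM3A arrays lay above all 4 controls. FBXO17 was well above the filter in A549 alone, and FBXO6 in both lines.

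The partners of the receptors were described from lists of SCF parts. The list called SCF core held 6 genes, CUL1, SKP1, RBX1 and RNF7 together with CKS1B and CKS2, which are not subunits of the scaffold. Of these 6 genes, 2 rose in A549 and 3 in SW780, and none fell, where 5.33% and 5.68% of all genes rose. Median changes were 0.19 in A549 and 0.23 in SW780. Between the control siRNAs 1 of the 6 was lower under siEGFP in A549 and 2 in SW780. RNF7, the RING protein that can stand in for RBX1, had 5654 and 5439.7 in A549 siKDM3A arrays, against 3629 and 3481 under siEGFP and 4716 and 4639 under siFFluc (0.44 ± 0.06, adjusted p = 3.91e-04). In SW780 it had 5312 and 5241 under siKDM3A, against 3414 and 3755 under siEGFP and 4359 and 4366 under siFFluc (0.42 ± 0.06, adjusted p = 7.58e-04). RNF7 under siKDM3A was above all controls in both lines, and in each line siFFluc lay above siEGFP. CKS2, a small protein close to the SKP2 cofactor CKS1B, rose in A549 (0.23 ± 0.06, adjusted p = 0.0343) and SW780 (0.40 ± 0.06, adjusted p = 0.00136), and RBX1 rose in SW780 (0.28 ± 0.06, adjusted p = 0.00947). Against each control alone RNF7 passed in both lines and CKS2 in SW780, while CKS2 in A549 passed against neither and RBX1 in SW780 not against siEGFP (adjusted p = 0.0653).

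CUL1 is switched on by the ubiquitin-like protein NEDD8 and switched off by the COP9 signalosome. Of 13 tested genes of neddylation and cullin exchange, 1 rose and 2 fell in A549, where 11.7% of all genes passed, and none passed in SW780 by limma, where 6 were under an unadjusted p of 0.05, at median changes of 0.08 in A549 and 0.10 in SW780. NAE1, part of the NEDD8 activating enzyme, rose in A549 (0.31 ± 0.06, adjusted p = 0.00792), while the NEDD8 conjugating enzyme UBE2F fell (-0.27 ± 0.06, adjusted p = 0.0129), as did DCUN1D3 (-0.45 ± 0.11, adjusted p = 0.0228). Each of these 3 missed the threshold against 1 of the control siRNAs, with adjusted p-values of 0.0626 for NAE1 and 0.0724 for UBE2F against siEGFP and 0.0589 for DCUN1D3 against siFFluc. Of 9 signalosome genes, COPS3 rose in A549 (0.28 ± 0.06, adjusted p = 0.0128) and COPS5, the subunit that removes NEDD8, rose in A549 (0.17 ± 0.05, adjusted p = 0.0487) and SW780 (0.19 ± 0.05, adjusted p = 0.0326), at list medians of 0.08 in A549 and 0.00 in SW780. COPS3 in A549 passed against each control alone, whereas COPS5 passed against neither in A549 and only against siEGFP in SW780. Of 7 other cullins, CUL4B fell in SW780 (-0.37 ± 0.08, adjusted p = 0.00760) and none passed in A549 by limma, where 1 was under an unadjusted p of 0.05, at list medians of 0.05 in A549 and -0.02 in SW780. Against siEGFP alone CUL4B had an adjusted p of 0.0656.

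Of 4 tested enzymes that pass ubiquitin to SCF substrates, ARIH1 fell in each line and no other passed in a single line, at list medians of 0.09 in A549 and -0.12 in SW780. ARIH1 encodes a ligase that works on neddylated SCF complexes to place the first ubiquitin. Its A549 signals were 794 and 808 under siKDM3A, against 1538 and 1359 under siEGFP and 1849.9 and 1893 under siFFluc (-1.02 ± 0.09, adjusted p = 1.72e-05). In SW780 they were 1261 and 1441 under siKDM3A, against 1603 and 1639.6 under siEGFP and 2177 and 1817 under siFFluc (-0.41 ± 0.09, adjusted p = 0.0104). Every siKDM3A array lay below every control array of its line, and the fall differed in size between lines (0.61 ± 0.13, adjusted p = 0.0283). In SW780 it was -0.26 ± 0.10, adjusted p = 0.160 against siEGFP alone and -0.56 ± 0.10, adjusted p = 0.00344 against siFFluc alone. A second enzyme of the list, UBE2G1, rose with the lines averaged (0.21 ± 0.05, adjusted p = 0.0119).

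Transcripts of known SCF substrates moved both ways, and their protein levels were not measured. Of 24 tested, 5 rose and 4 fell in A549 at a median of 0.06, where 5.33% of all genes rose and 6.35% fell. In SW780 6 rose and 3 fell at a median of 0.08, where 5.68% of all genes rose and 6.15% fell. Many of these genes also differed between the control siRNAs, 3 of 24 in A549 and 9 of 24 in SW780, against 2.92% and 5.57% of all genes. WEE1, a mitosis-delaying kinase that beta-TrCP marks, rose in A549 (0.50 ± 0.07, adjusted p = 7.00e-04) and SW780 (0.50 ± 0.07, adjusted p = 9.30e-04). CDKN1A, which encodes p21, fell in A549 (-0.52 ± 0.07, adjusted p = 4.02e-04), and CDKN1B, which encodes the SKP2 substrate p27, rose in SW780 (0.53 ± 0.06, adjusted p = 1.51e-04). These 4 changes passed against each control siRNA alone. CDKN1B under siKDM3A also lay above all controls in A549. Its A549 signals were 2849.7 and 2903.5 under siKDM3A, against 2343.9 and 2385 under siEGFP and 2327 and 2354.2 under siFFluc.

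DTL and the exonuclease gene EXO1 passed against the average of the controls but not against siEGFP. DTL had A549 signals of 3523 and 3570.1 under siKDM3A, against 3349 and 3395 under siEGFP and 2188 and 2248 under siFFluc (0.37 ± 0.06, adjusted p = 0.00115). Its change was 0.07 ± 0.07, adjusted p = 0.595 against siEGFP alone and 0.67 ± 0.07, adjusted p = 3.85e-05 against siFFluc alone. EXO1 had SW780 signals of 1861 and 1878 under siKDM3A, against 1506 and 1749 under siEGFP and 1096 and 1078 under siFFluc (0.49 ± 0.08, adjusted p = 0.00140). For both genes the siFFluc arrays were the lowest, and the EXO1 change was 0.20 ± 0.09, adjusted p = 0.206 against siEGFP alone.

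The APC/C, which FBXO5 inhibits, had 17 tested genes. In A549 4 rose and 1 fell at a median of 0.11, and in SW780 1 rose and 1 fell at a median of -0.02, beside the shares of all genes given for the substrates. CDC23, a scaffold subunit, had 1458 and 1383 in A549 siKDM3A arrays, against 2826 and 2851.5 under siEGFP and 2798 and 2591 under siFFluc (-0.95 ± 0.07, adjusted p = 2.40e-06). In SW780 it had 2154.5 and 2087 under siKDM3A, against 3301 and 3409 under siEGFP and 3217 and 3589 under siFFluc (-0.67 ± 0.07, adjusted p = 7.45e-05). The groups were wide apart in both lines. UBE2C, the E2 enzyme that starts ubiquitin chains on APC/C substrates, rose in A549 (0.28 ± 0.06, adjusted p = 0.00607) and SW780 (0.25 ± 0.06, adjusted p = 0.0111), and UBE2S, which extends them, rose in A549 (0.25 ± 0.05, adjusted p = 0.00725). The changes of CDC23, UBE2C and UBE2S given here passed against each control alone.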

How the data were processed

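The deposited table held MAS5 signal intensities on a linear scale for 54675 probe sets on 12 arrays, which the authors made with MAS5, per the submitters' processing notes. No MAS5 version is given in these sources. Every array had a trimmed mean of 500.1 with 2% left out at each end. Of the probe sets, 62 controls were removed, 41091 had a single gene symbol, 1801 had several and 11721 had none. Entrez numbers tied 41037 of them to current RefSeq symbols (GRCh38.p14). A gene was read from its probe set of highest mean signal and tested where that mean reached the 40th percentile (33.6). Values were taken as log2(signal + 16), and 6 group means were fitted in limma 3.58.1 (R 4.3.3) with a trended prior variance and Benjamini-Hochberg adjustment over 14061 genes. Plots used Python 3.11.15 and matplotlib 3.10.9. The number of arrays, 2 per group, limits the precision.

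The family, the partner lists and the tests were chosen with earlier results of these data known. Members were named where they passed a knockdown test (the 12 largest with the lines averaged), where they had 1 of the 5 highest signals or of the 5 widest line differences in a direction, or where the control siRNAs differed. BTRC, FBXW11, SKP2, FBXW7, CCNF and FBXO5 were named in any case, as were the up to 3 partners of smallest p per list. Alternatives covered the pseudocount, filter, scaling, probe set choice, variance trend, each line fitted apart, each control alone, a replicate block and each array left out. Testing every probe set on its own, the difference between lines of the control siRNAs, each control alone for partners and markers, and bounds for signals under the filter were added after the data were seen. The procedure was tested on simulated data. Samples with the same replicate number did not deviate together across groups (r from -0.03 to 0.02), so the numbers were not taken to pair samples. Raw scan files were not analysed here.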

Additional observations from a re-analysis of the deposited data

Results flagged for a closer look

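The test of the difference between the lines picked out 3 receptors whose change under siKDM3A was not the same in SW780 and A549. FBXO5 changed by 0.61 in SW780 and by -0.07 in A549, a difference of 0.68 (adjusted p = 0.00731). FBXW12 changed by 0.48 in SW780 and by -0.33 in A549, a difference of 0.81 (adjusted p = 0.0275). SKP2 changed by -0.09 in SW780 and by 0.59 in A549, a difference of -0.68 (adjusted p = 0.0148). Of 24 alternatives, the difference between lines missed the threshold in 11 for FBXW12, in 5 for SKP2 and in 3 for FBXO5. Of these losses, 8 for FBXW12, 3 for SKP2 and 1 for FBXO5 came from leaving out 1 array. FBXO5 also differed between siEGFP and siFFluc in SW780, by 0.58, and with siEGFP as the only control its difference between the lines was 0.32 (adjusted p = 0.249).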

How the results depend on the processing

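Of 70 calls on members over all comparisons, 32 held under every alternative, 10 of the 31 knockdown and control siRNA calls and 22 of the 39 line calls. The line calls include those of FBXO2, FBXO10, FBXO17, FBXO43 and FBXL7, whose mean SW780 control signals lay under the filter level. The knockdown count in A549 was 13 after scaling to equal medians and 14 with each line fitted apart, against 6. Of all genes 18.6% were called each time, against 11.7%. The count of members whose response differed between lines was 7 after scaling to equal medians, with 13.8% of all genes called, against 3 with 2.75%. It was 0 without the variance trend, with 0.597%, and 1 with siEGFP as the only control, with 0.548%. The count for control siRNAs in A549 was 2 with a pseudocount of 64, with the 60th percentile filter, after quantile normalization and with each line fitted apart, against 1. In that order 3.04%, 4.15%, 3.44% and 3.98% of all genes were called, against 2.92%. The cause was not tested. Leaving out 1 array moved the calls over all genes too. Of those fits, the ones with the highest counts for A549, SW780 and the averaged lines called the most of all genes. With 1 array left out in turn the counts ran from 3 to 12 for A549, from 4 to 9 for SW780, from 7 to 18 with the lines averaged, from 0 to 3 for the difference between lines, from 31 to 40 for SW780 over A549, from 1 to 2 for A549 control siRNAs, from 2 to 6 for SW780 control siRNAs and from 0 to 2 for their difference between lines. Signs turned for FBXW11 with siFFluc as the only control, to -0.19 in A549 (adjusted p = 0.195) and -0.25 with the lines averaged (adjusted p = 0.00983), its siKDM3A level lying between those of the control siRNAs. Signs also turned with the mean of all probe sets in SW780 over A549, to 0.29 for FBXW2, -0.15 for FBXO42 and -0.19 for FBXL20. A replicate block gave 6 calls in A549, 6 in SW780 and 13 with the lines averaged, with 11.6%, 11.4% and 18.3% of all genes called. For the difference it gave 2, with 1.69% of all genes, and the FBXW12 call ended (adjusted p = 0.0515). For SW780 over A549 it gave 29, with 62.4% of all genes. For control siRNAs it gave 1 in A549, with 2.64%, 3 in SW780, with 6.59%, and 0 for their difference, with 0.0142%. The pairing that a replicate block assumes was not borne out by the arrays. SW780 control signals of FBXO2, FBXO10, FBXO43 and FBXO44 ran from 2.3 to 58.6, which limits their precision.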
